A study of Mus musculus with 27 samples.

Results

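Bone marrow-derived macrophages that lack TRAP1 were compared with wild-type (WT) macrophages under the plainest of the study's conditions, unpolarized cells (Mφ, labelled M0) kept in control medium. The comparison rests on the libraries that the labels assign to M0 cells, control medium (DMEM) and batch 1, which are 3 TRAP1 KO and 3 WT libraries of the 27 in the series. Of 50559 genes in the deposited count table, 13614 passed a filter on low counts and were tested. The cells came from female C57BL/6 mice of 3-4 months, WT or TRAP1 KO and matched for age, whose marrow was grown for several days in medium that held M-CSF from L929 cells. They were then held in DMEM for 48 h. Neither group received IL-4 or medium conditioned by malignant peripheral nerve sheath tumour cells (MPNST-CM). The other groups of the series add IL-4 for 24 h at 10 ng/ml to give M2 cells, MPNST-CM for 48 h, or both. How the Trap1 allele was inactivated and how many mice gave each library are not given in the sources used here, so p-values measure the spread between these libraries, which may be technical. RNA was read with a 3′ end method that gives 1 tag near the poly(A) tail of each transcript.

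TRAP1 is a member of the HSP90 family of chaperones that works inside mitochondria. It binds and restrains succinate dehydrogenase, the enzyme that turns succinate into fumarate in the tricarboxylic acid cycle and passes electrons to the respiratory chain. Accumulated succinate can inhibit the prolyl hydroxylases that mark HIF-1α for degradation, which links the chaperone to hypoxia-type transcription. In macrophages, succinate, itaconate and HIF-1α are known to shape inflammatory activation, and M-CSF keeps these cells alive and in cycle.

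The 6 libraries held 7037684 to 8045524 counts and detected 18224 to 19273 genes. A floor of 3 counts corresponded to 0.341 to 0.394 CPM, the counts scaled to a common library size. Replicate 1 of each genotype stood apart from replicates 2 and 3, with chi-square values of 16 to 17.8 per degree of freedom. Between replicates 2 and 3 the value was 2.11 in WT and 3.42 in TRAP1 KO. The mitochondrial 16S rRNA mt-Rnr2 showed the same split, with 19121, 7057 and 6825 CPM in WT and 22514, 8731 and 7867 CPM in TRAP1 KO. All 18 macrophage markers were tested, and their summed level was 16434 to 18024 CPM in WT and 18527 to 22844 CPM in TRAP1 KO libraries. The 16 markers of B, T and NK cells summed to 2.48 to 5.01 CPM in WT and 5.79 to 7.46 CPM in TRAP1 KO libraries, with 1 of 3 tested members higher. Cd79a and Cd3e had no count, and other members under the filter had up to 3 counts a library. The fibroblast list summed to 1.17 to 2.89 CPM.

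Trap1 itself was read at 13.4, 11.6 and 11.6 CPM in the WT and 0 CPM in each of the TRAP1 KO libraries. Against a floor of 3 counts per library its level was at least 31.5-fold lower in TRAP1 KO cells. A further difference between the genotypes was seen at Xist, the RNA that coats the inactive X chromosome in female cells, with 468, 339.5 and 327 CPM in WT and 0.875, 0.131 and 0.395 CPM in TRAP1 KO. All 8 groups of batch 1 showed this split, with 254 to 504 CPM in WT libraries and 0 to 1.14 CPM in TRAP1 KO libraries. The Y-linked genes Ddx3y, Kdm5d, Uty and Eif2s3y had no count in any of the 6 libraries. Among the genes known to escape X inactivation, Eif2s3x (log2 fold change -0.80 ± 0.18 SE, adjusted p = 0.00205) and Pbdc1 (log2 fold change -0.42 ± 0.089 SE, adjusted p = 0.00108) were lower in TRAP1 KO Mφ. Loss of TRAP1 and loss of Xist RNA cannot be told apart in these libraries. On the X chromosome 61 of 452 tested genes (13.5%) passed the test, against 16.9% on autosomes other than that of Trap1. In all 4 combinations of polarization and medium 10 of the 452 X-linked genes were lower and 0 higher. Over all 13614 tested genes 140 were lower and 154 higher in all 4.

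At an adjusted p under 0.05, 2261 genes passed the test between TRAP1 KO and WT Mφ, or 16.6% of those tested. Of these 1176 (8.64%) were higher and 1085 (7.97%) lower in TRAP1 KO cells, and the median log2 fold change over all tested genes was 0.03. The count was 595 when a change of 1 or more on the log2 scale was also required, of which 208 were higher and 387 lower. The 3 TRAP1 KO libraries did not overlap the 3 WT libraries at 31.7% of tested genes, with TRAP1 KO higher at 17.4% and lower at 14.3%. Without replicate 1 of either genotype 1686 genes passed, 1624 of them among the 2261. Fits of all 27 libraries of both batches gave 854 genes without and 843 with a batch term, and a fit of the 6 libraries with the replicate number as a block gave 4065. Of 229 genes examined one by one 116 and 119 lost their call in the 27-library fits, among them Vegfa in both, Scd1 and Fabp4 without the batch term and Mmp9 with it.

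**Figure D1:**
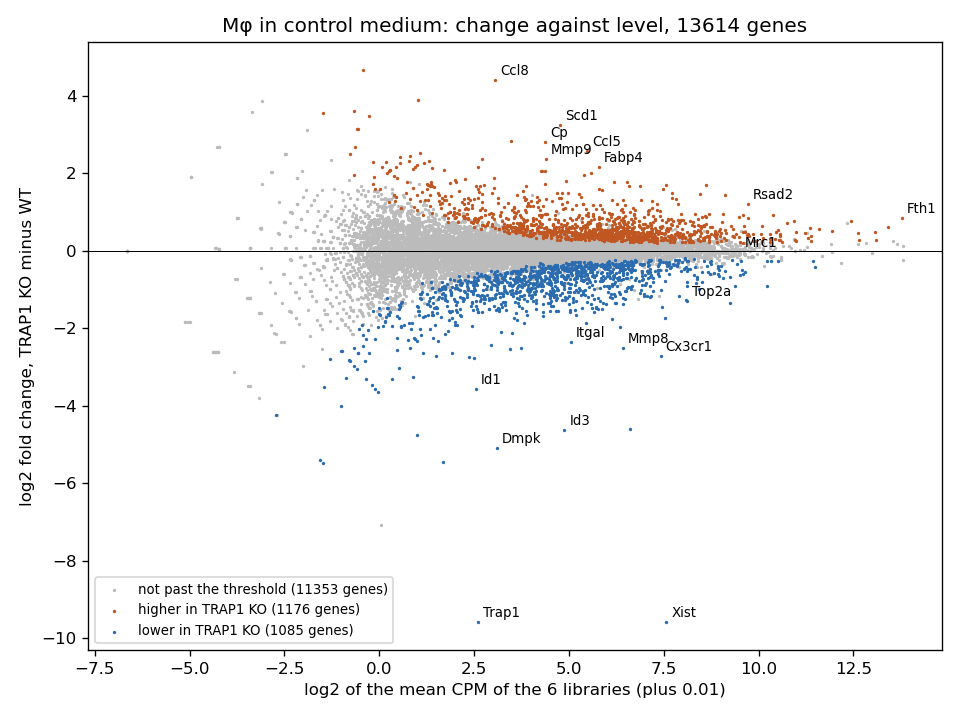
Log2 fold change (TRAP1 KO minus WT) of each of 13614 tested genes in Mφ in control medium, against the log2 of its mean CPM over the 6 libraries. Orange points are the 1176 genes higher and blue points the 1085 genes lower in TRAP1 KO cells, and Trap1 and Xist lie far below the rest of the labelled genes.

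The 15 genes that rose most in TRAP1 KO Mφ, among those whose groups did not overlap and whose higher group reached 10 CPM, ran from 4.41 to 1.81 on the log2 scale. Ccl8, which encodes the monocyte attractant CCL8, was read at 0.613, 0.521 and 1.03 CPM in WT and 14.1, 17.8 and 15.8 CPM in TRAP1 KO (log2 fold change 4.41 ± 0.22 SE, adjusted p = 8.15e-14). For Ccl8 the WT libraries held 4 to 9 counts. Scd1, the desaturase that makes oleic from stearic acid, stood at 4.42, 6.78 and 4.33 CPM in WT and 48.8, 48.7 and 49.3 CPM in TRAP1 KO (log2 fold change 3.25 ± 0.16 SE, adjusted p = 8.15e-14). The ferroxidase ceruloplasmin, Cp, was found at 5.4, 5.6 and 4.33 CPM in WT and 38.1, 35.2 and 35 CPM in TRAP1 KO (log2 fold change 2.82 ± 0.21 SE, adjusted p = 1.62e-10). Ccl5, a chemokine for T cells and monocytes, gave 13, 13.7 and 11.7 CPM in WT and 69.4, 77.2 and 83.6 CPM in TRAP1 KO (log2 fold change 2.58 ± 0.14 SE, adjusted p = 8.81e-13). Within each genotype these values lay close together, and the lack of overlap between groups was a condition of the choice. Fabp4, a fatty acid carrier of macrophages and adipocytes, rose by 2.16 on the log2 scale, and the acute phase gene Saa3 by 2.02. Others of the 15 were Fxyd2 (2.84), Lrrc14b (2.38), Mmp9 (2.37), Dio2 (2.07) and Gm42517 (2.06). The rest were Samd4 (2.05), Slamf8 (1.96), the monoacylglycerol lipase Mgll (1.89) and the inositol transporter Slc5a3 (1.81). The highest adjusted p among them was that of Lrrc14b, 3.65e-06.

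Below Xist and Trap1, the largest falls among genes without overlap that reached 10 CPM in the higher group were at the inhibitors of differentiation Id3 and Id1 and at the kinase gene Dmpk. Id3, a helix-loop-helix protein that blocks E proteins, was read at 53.2, 57.7 and 59 CPM in WT and 1.75, 2.36 and 2.76 CPM in TRAP1 KO (log2 fold change -4.62 ± 0.20 SE, adjusted p = 1.06e-14). Its relative Id1 gave 10.9, 10.8 and 10.8 CPM in WT and 1, 1.18 and 0.526 CPM in TRAP1 KO (log2 fold change -3.56 ± 0.33 SE, adjusted p = 8.47e-09). Dmpk, the myotonic dystrophy protein kinase, showed 16.6, 16.2 and 17.2 CPM in WT and 0.5, 0.524 and 0.395 CPM in TRAP1 KO (log2 fold change -5.09 ± 0.24 SE, adjusted p = 5.07e-14). At these genes each TRAP1 KO library held 3 to 21 counts. Cx3cr1, the fractalkine receptor of monocytes and tissue macrophages, fell from high levels, with 288, 305 and 297 CPM in WT and 40.0, 45.8 and 50.6 CPM in TRAP1 KO (log2 fold change -2.71 ± 0.12 SE, adjusted p = 1.06e-14). Mmp8, a collagenase, was at 130.0, 155 and 156 CPM in WT and 24, 27.1 and 25.8 CPM in TRAP1 KO (log2 fold change -2.52 ± 0.11 SE, adjusted p = 1.06e-14). The integrin αL gene Itgal was at 54.3, 58.8 and 54.3 CPM in WT and 9.5, 10.6 and 12.8 CPM in TRAP1 KO (log2 fold change -2.35 ± 0.13 SE, adjusted p = 4.35e-13). That none of these groups overlapped was again a condition of the choice. Lower too were Ifitm1 (-2.53), the leukotriene enzyme Alox5 (-2.52), the checkpoint ligand Cd276 (-2.43), Pald1 (-2.13), Inpp4b (-2.09), the chemokine receptor Ccr1 (-1.97) and Xaf1 (-1.87).

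**Figure D2:**
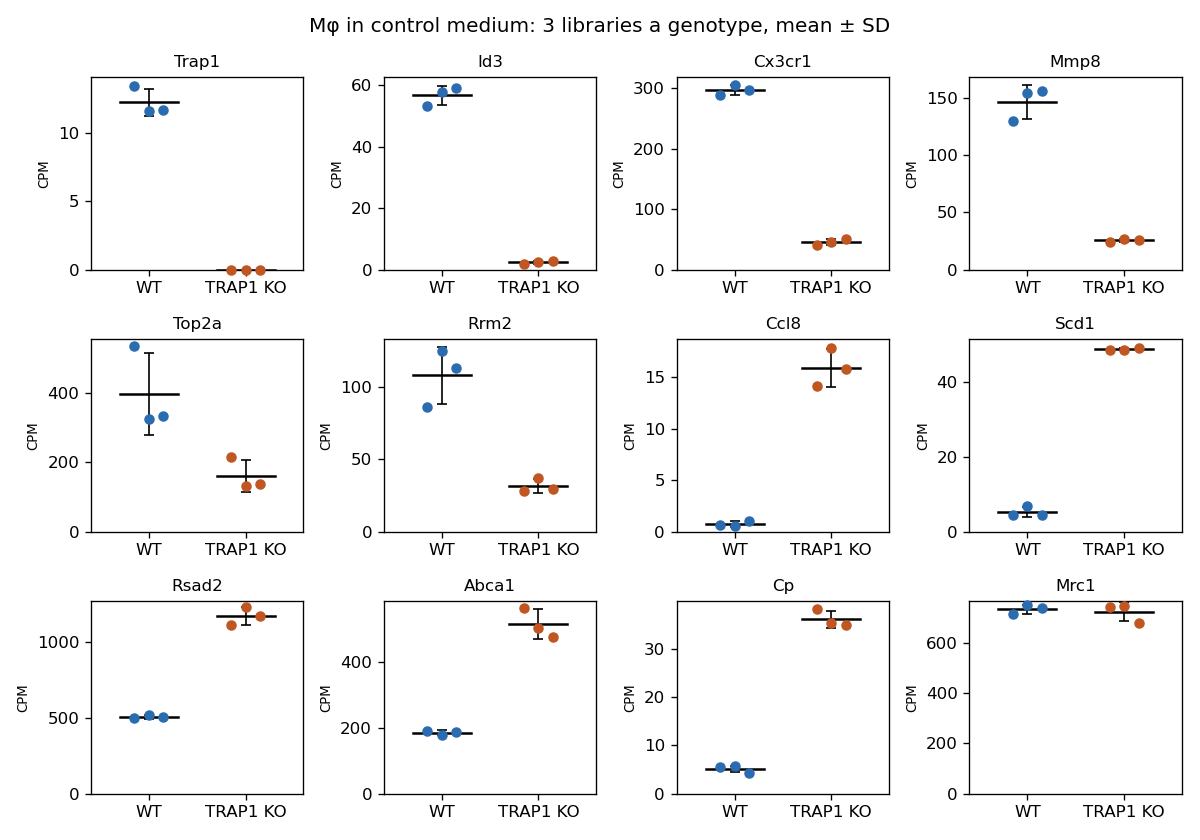
Level in CPM of 12 genes in each of 3 WT (blue) and 3 TRAP1 KO (orange) Mφ libraries in control medium, with the mean and SD of each group in black. For Mrc1 the groups overlap, and for the other 11 genes they do not.

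Genes of DNA replication and mitosis were lower in TRAP1 KO Mφ almost as a block. Of 71 tested members 64 were lower and 0 higher, with a median log2 fold change of -1.11, against 7.97% of all tested genes lower and a median of 0.03. The summed level of the 72 listed genes was 7566, 6715 and 6637 CPM in the WT libraries and 3736, 3354 and 3339 CPM in the TRAP1 KO libraries. Rrm2, the small subunit of ribonucleotide reductase, was read at 86.1, 125 and 113 CPM in WT and 28.1, 37.4 and 29.7 CPM in TRAP1 KO (log2 fold change -1.77 ± 0.16 SE, adjusted p = 1.04e-08). The E-type cyclins that open S phase fell as well. Ccne1 was at 21.7, 25.7 and 20.3 CPM in WT and 7.75, 6.54 and 7.23 CPM in TRAP1 KO (log2 fold change -1.65 ± 0.14 SE, adjusted p = 1.52e-09), and Ccne2 fell by a like amount (log2 fold change -1.66 ± 0.20 SE, adjusted p = 2.04e-06). Uhrf1, which keeps DNA methylation through replication, was at 43.7, 49.1 and 53 CPM in WT and 15.9, 16.1 and 16.7 CPM in TRAP1 KO (log2 fold change -1.58 ± 0.15 SE, adjusted p = 1.42e-08). Top2a, the topoisomerase that untangles mitotic chromosomes, showed 533, 325 and 332 CPM in WT and 213, 131 and 137 CPM in TRAP1 KO (log2 fold change -1.31 ± 0.28 SE, adjusted p = 0.00246). Replicate 1 was the highest library of each genotype. The licensing helicase gene Mcm5 (-1.46), thymidine kinase Tk1 (-1.50), the mitotic kinases Plk1 (-1.20) and Aurkb (-1.11) and cyclin B1, Ccnb1 (-0.80), fell as well. The 7 members that did not pass were Smc2, Ccnd1, Mki67, Cenpa, Ncapg2, Knl1 and Gins2. Mki67, the usual proliferation marker, was read at 207, 110.5 and 108 CPM in WT and 92.8, 62.7 and 53.8 CPM in TRAP1 KO (log2 fold change -1.02 ± 0.38 SE, adjusted p = 0.077). It passed in DESeq2 (-1.05, adjusted p = 0.0403) and with a replicate block over the 24 libraries (adjusted p = 0.00653). Without replicate 1 of either genotype 60 of 71 were lower, and in the 27-library fits 37 and 30. In bulk RNA, fewer cells in cycle and less of these RNAs per cell cannot be told apart.

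Promoters of these genes were examined because the members moved together. RefSeq (GRCm38.p6) gave windows of 250 bases before to 50 after a start for 56 of the 71 genes, and all listed starts of a gene were searched on both strands. The core of an E2F site, TTCCCGC or TTGGCGC, was found at 23 of 56 (41.1%) against 13.8% of the 9906 tested genes with a window, and the cell cycle genes homology region TTTGAA at 30 (53.6%) against 14.9%. Among the 51 members called lower that have a window the shares were 41.2% and 49%, close to those of the whole list. The shares therefore describe the list and not its response to genotype. Among all genes lower in TRAP1 KO cells, which include these members, the shares were 25% and 22.3%, and among all higher genes 10% and 15.1%. The windows printed are those of the members with the largest fall that hold an E2F core, shown with the core in capitals on whichever strand it lies. A match is a run of letters and no evidence of binding.
Uhrf1, chr17:56303087-56303386, plus strand: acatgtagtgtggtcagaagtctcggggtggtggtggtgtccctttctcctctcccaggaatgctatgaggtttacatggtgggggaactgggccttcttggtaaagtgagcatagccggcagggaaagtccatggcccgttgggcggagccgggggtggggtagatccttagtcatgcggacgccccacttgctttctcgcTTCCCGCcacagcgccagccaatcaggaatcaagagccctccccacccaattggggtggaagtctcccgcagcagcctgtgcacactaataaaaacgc
Rad51ap1, chr6:126939538-126939837, minus strand: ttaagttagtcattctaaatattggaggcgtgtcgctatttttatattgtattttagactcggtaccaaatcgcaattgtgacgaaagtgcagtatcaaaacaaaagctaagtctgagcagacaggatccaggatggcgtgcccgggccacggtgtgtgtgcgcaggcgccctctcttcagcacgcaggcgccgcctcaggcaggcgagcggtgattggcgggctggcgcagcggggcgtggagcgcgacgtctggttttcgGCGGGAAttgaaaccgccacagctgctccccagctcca

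Interferon-stimulated genes, the antiviral and guanylate-binding genes switched on by interferon signalling, rose in TRAP1 KO Mφ. Of 65 tested members 44 were higher and 2 lower, with a median log2 fold change of 0.57, against 8.64% of all tested genes higher. Their summed level was 9666, 9441 and 9472 CPM in the WT libraries and 14018, 14206 and 14242 CPM in the TRAP1 KO libraries. Rsad2, which encodes the antiviral enzyme viperin, was read at 496, 518 and 501 CPM in WT and 1110, 1230 and 1171 CPM in TRAP1 KO (log2 fold change 1.21 ± 0.082 SE, adjusted p = 3.59e-11). The immunity-related GTPase Iigp1 gave 38, 48.9 and 38.4 CPM in WT and 144, 146 and 141 CPM in TRAP1 KO (log2 fold change 1.79 ± 0.13 SE, adjusted p = 1.63e-10). Ifit1bl1 of the IFIT family was at 28.3, 38.3 and 33 CPM in WT and 103, 121 and 115 CPM in TRAP1 KO (log2 fold change 1.76 ± 0.13 SE, adjusted p = 1.49e-10). For each of these the TRAP1 KO libraries lay well above the WT libraries. The chemokine Cxcl10, a ligand of CXCR3, was at 86.1, 102 and 100.3 CPM in WT and 196, 257 and 210.3 CPM in TRAP1 KO (log2 fold change 1.20 ± 0.14 SE, adjusted p = 2.30e-07). Gbp2 (1.31), Ifit2 (1.49), Isg15 (0.84), Mx1 (0.81), Irf7 (0.60) and Ifitm3 (0.46) rose too. The exceptions Ifitm1 (log2 fold change -2.53 ± 0.15 SE, adjusted p = 4.34e-12) and Xaf1 (log2 fold change -1.87 ± 0.20 SE, adjusted p = 3.80e-07) were lower. Several of these families (Ifi200, Gbp, Ifit) hold near-identical copies whose reads the counting may split, so single members are less certain than the list. Without replicate 1 of either genotype 37 of 65 were higher, while the 27-library fits called 5 and 4, with medians of 0.65 and 0.76. Rsad2, Ifit2, Isg15, Mx1, Irf7 and Ifitm3 lost their calls in both of these fits, as did Ifitm1 and Xaf1.

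The core of the interferon-stimulated response element, GAAANNGAA, lay in the promoter windows of 37 of 53 list members with one (69.8%), against 9.12% of all tested genes, 14.1% of all genes higher in TRAP1 KO cells and 8.55% of all lower genes. For list members called higher the share was 78.4% (29 of 37), and these members are part of all genes higher. The windows of the members with the largest rise and at least 10 CPM that hold the core are shown with the core in capitals on whichever strand it lies.
Ifit1bl1, chr19:34601919-34602218, minus strand: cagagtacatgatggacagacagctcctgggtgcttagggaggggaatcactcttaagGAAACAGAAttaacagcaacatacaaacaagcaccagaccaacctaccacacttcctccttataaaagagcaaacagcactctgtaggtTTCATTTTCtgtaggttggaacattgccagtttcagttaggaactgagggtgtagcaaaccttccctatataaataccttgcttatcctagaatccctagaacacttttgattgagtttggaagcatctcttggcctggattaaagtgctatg
Gbp2, chr3:142620413-142620712, plus strand: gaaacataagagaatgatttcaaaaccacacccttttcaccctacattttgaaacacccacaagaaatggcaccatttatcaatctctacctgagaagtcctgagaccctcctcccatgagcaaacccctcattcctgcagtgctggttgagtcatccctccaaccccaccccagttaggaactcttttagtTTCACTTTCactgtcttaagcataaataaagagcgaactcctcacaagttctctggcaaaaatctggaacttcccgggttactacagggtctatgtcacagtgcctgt

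Antigen presentation genes rose in part. Of 18 tested genes of MHC class I presentation 10 were higher and 0 lower (median 0.39), and of 12 of class II 6 were higher and 1 lower (median 0.20), against 8.64% of all tested genes higher. Both 27-library fits called 4 class I genes and 0 class II genes higher, and H2-Eb1, Cd74 and Ciita lost their calls there. The class I heavy chain H2-D1 was read at 1904, 2190 and 2194 CPM in WT and 2765, 3284 and 3352 CPM in TRAP1 KO (log2 fold change 0.58 ± 0.10 SE, adjusted p = 8.10e-05), and the light chain B2m rose by 0.47. In class II, H2-Eb1 stood at 66.6, 66.7 and 62.5 CPM in WT and 128, 118 and 144 CPM in TRAP1 KO (log2 fold change 1 ± 0.10 SE, adjusted p = 1.80e-08). Cd74, the invariant chain, was at 200.2, 218 and 242 CPM in WT and 381, 391 and 497 CPM in TRAP1 KO (log2 fold change 0.94 ± 0.11 SE, adjusted p = 2.34e-07), and the class II transactivator Ciita rose by 0.82. The ubiquitin ligase Marchf1, which removes class II from the surface, was the member that was lower (-0.32), a call that was lost without TRAP1 KO replicate 2 or 3 or WT replicate 1 (-0.29 to -0.30). MHC genes are polymorphic and share sequence, so their tags may be split between copies.

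Lysosomal genes were higher in breadth but by small amounts. Of 48 tested members 27 were higher and 1 lower (median 0.33), against 8.64% of all tested genes higher and 7.97% lower. The 27-library fits called 4 and 7 as higher. Cathepsin B, Ctsb, was read at 7586, 9335 and 9012 CPM in WT and 11917, 14345 and 13612 CPM in TRAP1 KO (log2 fold change 0.62 ± 0.091 SE, adjusted p = 1.15e-05). Cathepsin D, Ctsd (0.49), the saposin precursor Psap (0.92), cathepsin K, Ctsk (1.04), and the proton pump subunit Atp6v0d2 (0.84) rose too, and cathepsin C, Ctsc (-0.59), fell. Of 27 scavenger and Fc receptors 15 were higher and 4 lower. Dectin-1, Clec7a, was read at 178, 164 and 168 CPM in WT and 336, 329 and 313 CPM in TRAP1 KO (log2 fold change 0.94 ± 0.081 SE, adjusted p = 2.35e-09), and the efferocytosis receptor Mertk at 125, 128 and 132 CPM in WT and 217, 235 and 219 CPM in TRAP1 KO (log2 fold change 0.80 ± 0.08 SE, adjusted p = 3.16e-08). The scavenger receptor Msr1 went the other way, with 314, 348 and 330.4 CPM in WT and 145, 148 and 152 CPM in TRAP1 KO (log2 fold change -1.16 ± 0.067 SE, adjusted p = 1.43e-12), as did Axl (-0.46). Both 27-library fits called 3 of these receptors higher and 1 lower, and Clec7a and Axl lost their calls in both. Of 16 complement genes 6 were higher and 2 lower. C3, the central component, was at 50.4, 56.8 and 61.9 CPM in WT and 162, 181 and 192 CPM in TRAP1 KO (log2 fold change 1.66 ± 0.09 SE, adjusted p = 4.61e-13). The C1q chains C1qa (0.88), C1qb (0.94) and C1qc (0.85) rose together, while the complement receptor integrins Itgam (-0.64) and Itgax (-0.78) fell.

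**Figure D3:**
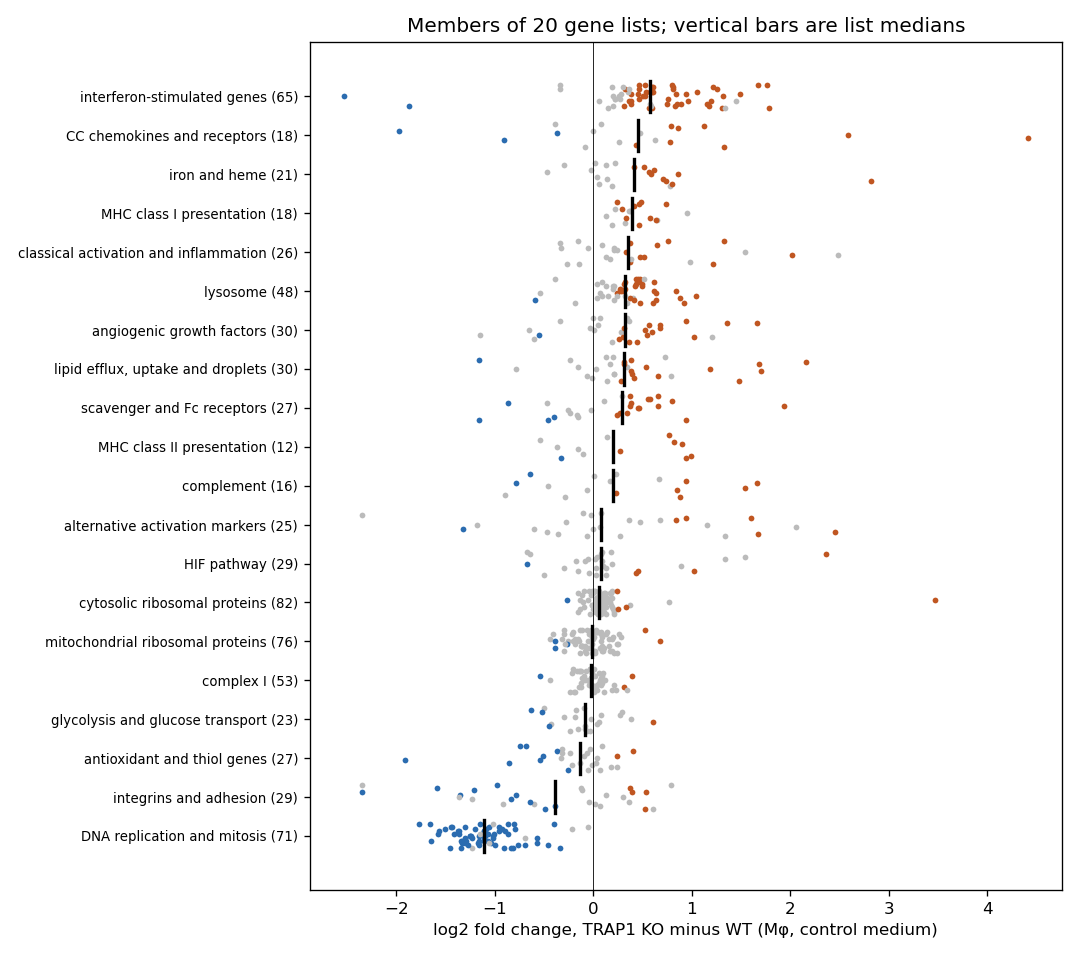
Log2 fold change (TRAP1 KO minus WT) in Mφ in control medium of the members of 20 gene lists, with the number of tested members in brackets, orange points higher, blue points lower and grey points not past the threshold, and a black bar at each list's median. The replication list sits at a median of -1.11 and the interferon list at 0.57, while complex I and the ribosomal lists lie around 0.

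Genes of iron and lipid handling rose in part. Of 21 iron and heme genes 10 were higher and 0 lower (median 0.41). Fth1, the ferritin heavy chain that stores iron, was read at 8976, 10649 and 10376 CPM in WT and 16936, 18713 and 18633 CPM in TRAP1 KO (log2 fold change 0.86 ± 0.083 SE, adjusted p = 1.76e-08). The transferrin receptor Tfrc (0.80) and ferroportin, Slc40a1 (0.74), which bring iron in and out of the cell, rose by similar amounts. Of 30 genes of lipid efflux, uptake and droplets 14 were higher and 1 lower (median 0.31). The cholesterol exporters Abca1, with 191, 176 and 186 CPM in WT and 564, 500.4 and 476 CPM in TRAP1 KO (log2 fold change 1.48 ± 0.13 SE, adjusted p = 2.70e-09), and Abcg1, with 156, 190.4 and 209.7 CPM in WT and 541, 633 and 618 CPM in TRAP1 KO (log2 fold change 1.69 ± 0.23 SE, adjusted p = 3.37e-05), were among them. The LDL receptor ligase Mylip (1.18) and Apoe (0.65) rose too, and all 4 genes are known targets of the liver X receptors. In cholesterol and fatty acid synthesis 3 of 31 genes were higher and 3 lower, near the 8.64% and 7.97% of all tested genes. Scd1 and Scd2 (84.3, 88.7 and 91.1 CPM in WT and 254, 279.6 and 271 CPM in TRAP1 KO, log2 fold change 1.61 ± 0.089 SE, adjusted p = 6.93e-13) and Acss2 (1.70) rose, and the elongase Elovl6 (-1.48) and Stard4 (-0.40) were among those that fell. The call at Stard4 was lost in 4 of the 6 fits without 1 library (-0.31 to -0.41).

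Antioxidant genes leaned down, with 8 of 27 lower and 2 higher (median -0.13), against 7.97% of all tested genes lower. Both 27-library fits called 4 lower, and Gpx1 lost its call in both. The quinone reductase Nqo1 was read at 5.4, 5.86 and 8.2 CPM in WT and 1.75, 2.36 and 1.05 CPM in TRAP1 KO (log2 fold change -1.91 ± 0.33 SE, adjusted p = 9.74e-05). Both subunits of the enzyme that begins glutathione synthesis were lower, Gclc (-0.86) and Gclm (-0.74), and the thioredoxin reductase Txnrd1 was at 101, 96 and 101 CPM in WT and 59.6, 64.8 and 61 CPM in TRAP1 KO (log2 fold change -0.69 ± 0.092 SE, adjusted p = 3.31e-06). These are known targets of NRF2, whose own gene Nfe2l2 was higher (log2 fold change 0.41 ± 0.085 SE, adjusted p = 9.63e-04). The peroxidase Gpx1 fell (-0.51).

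Secreted and adhesive proteins split in both directions. Of 18 CC chemokines and receptors 8 were higher and 3 lower, against 8.64% of all tested genes higher and 7.97% lower. The ligands Ccl8, Ccl5, Ccl12 (1.33), Ccl7 (0.86), Ccl3 (0.78), Ccl4 (0.79) and Ccl6 (0.44) and the decoy-like receptor Ccrl2 (1.13) rose. Among the receptors that fell, Ccr1 was read at 94.8, 152 and 143 CPM in WT and 27.4, 41.6 and 30.2 CPM in TRAP1 KO (log2 fold change -1.97 ± 0.29 SE, adjusted p = 8.36e-05) and Ccr2 at 358, 369.6 and 360.1 CPM in WT and 198, 199 and 182 CPM in TRAP1 KO (log2 fold change -0.91 ± 0.12 SE, adjusted p = 2.77e-06). Of 17 matrix metalloproteinases and inhibitors 7 were higher and 5 lower. Mmp9, the gelatinase B gene, was at 5.4, 6.91 and 8.2 CPM in WT and 34.8, 34.2 and 37.3 CPM in TRAP1 KO (log2 fold change 2.37 ± 0.14 SE, adjusted p = 1.43e-12). Mmp14 (1.31) and the inhibitor Timp2 (0.75) rose, and Mmp12 (-0.53) fell with Mmp8. Of 30 angiogenic growth factor genes 15 were higher and 1 lower (median 0.33). Vegfa was read at 16.7, 15 and 18.7 CPM in WT and 32.8, 32.5 and 37.1 CPM in TRAP1 KO (log2 fold change 1.02 ± 0.12 SE, adjusted p = 5.18e-07). Hbegf, an EGF family ligand, was at 2.7, 2.48 and 3.19 CPM in WT and 8.25, 9.82 and 8.68 CPM in TRAP1 KO (log2 fold change 1.67 ± 0.17 SE, adjusted p = 3.78e-08), and Vegfb (0.95) and Pdgfc (1.35) rose. Of 29 integrin and adhesion genes 10 were lower and 4 higher. Itgal, Vcan (-1.58), Emilin2 (-1.35), Itgb7 (-1.21) and Itgav (-0.98) led those that fell. The 27-library fits called 4 and 5 as lower, and Vcan, Emilin2 and Itgb7 lost their calls in both. The growth factor count was 10 without replicate 1 of either genotype and as low as 8 with single libraries left out. In the 27-library fits it was 2 and 3, and Vegfa and Hbegf lost their calls in both. For CC chemokines and receptors those fits called 3 and 4 higher, and Ccl12, Ccl7, Ccl3, Ccl6 and Ccr2 lost their calls in both. So did Timp2 and Mmp12, and Mmp9 lost its call with the batch term.

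Some markers of monocytes and granulocytes fell beside these genes. Among all tested genes 8.64% were higher and 7.97% lower. Of 10 tested monocyte markers 5 were lower, namely Cx3cr1, Ccr2, F13a1 (log2 fold change -1.48 ± 0.12 SE, adjusted p = 8.58e-10), Vcan and Treml4, and 1 was higher, Plac8 (log2 fold change 1.37 ± 0.35 SE, adjusted p = 0.00704), which was not called without TRAP1 KO replicate 2 (1.10). The 12 listed monocyte markers summed to 751 to 780 CPM in WT and 280 to 309 CPM in TRAP1 KO libraries, and the 15 neutrophil markers to 153 to 185 and 47.3 to 55.9 CPM. Of 8 tested neutrophil markers Mmp8, S100a8 (-2.06) and S100a9 (-1.95) were lower and Csf3r (0.80) higher. In both 27-library fits 3 monocyte and 1 neutrophil markers were lower. Ccr2, Vcan, S100a8, S100a9 and Csf3r lost their calls in both, and Plac8 lost its call without the batch term. In WT libraries most of the neutrophil sum came from Mmp8. That gene was at 130 to 156 CPM in WT and 24 to 27.1 CPM in TRAP1 KO, so the fall in the sum was largely its own. The granule genes Camp and Ltf had at most 1 count a library and Retnlg had 0. The platelet chemokine Pf4, which macrophages express too, was read at 803, 902 and 907 CPM in WT and 296, 409 and 325 CPM in TRAP1 KO (log2 fold change -1.34 ± 0.11 SE, adjusted p = 1.09e-09). Pf4 lost its call in both 27-library fits. The part that any mixture of cells has in the genotype difference was not tested.

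Markers of classical and alternative activation were affected in part. Of 26 genes of classical activation and inflammation 10 were higher and 0 lower (median 0.35), against 8.64% of all tested genes higher and 7.97% lower. Saa3, the deubiquitinase Tnfaip3 (1.33, not called at 1.11 without replicate 1 of either genotype) and Acod1, which makes itaconate, with 24.3, 25.9 and 24.9 CPM in WT and 51, 63 and 61.1 CPM in TRAP1 KO (log2 fold change 1.22 ± 0.15 SE, adjusted p = 1.15e-06), led them, and without replicate 1 of either genotype 6 passed. Of the markers that the study follows by RT-qPCR, Fcgr1 (CD64) was higher (log2 fold change 0.38 ± 0.081 SE, adjusted p = 0.00127), a call that was lost in both 27-library fits. Tnf was read at 26.9, 32.2 and 31.1 CPM in WT and 29.8, 26.8 and 30.4 CPM in TRAP1 KO (log2 fold change -0.05 ± 0.13 SE, adjusted p = 0.875), and Il1b at 3.8, 5.21 and 5.7 CPM in WT and 3.88, 3.8 and 4.08 CPM in TRAP1 KO (log2 fold change -0.33 ± 0.21 SE, adjusted p = 0.359). Nos2 stood at no more than 1.45 CPM in any library (log2 fold change 1.55 ± 0.81 SE, adjusted p = 0.231). Of 25 alternative activation markers 5 were higher and 1 lower (20% and 4%, median 0.08). Clec10a, the lectin Mgl1, stood at 39.1, 51.1 and 45.8 CPM in WT and 125, 157 and 153 CPM in TRAP1 KO (log2 fold change 1.68 ± 0.13 SE, adjusted p = 2.47e-10) and Tgm2 fell (log2 fold change -1.32 ± 0.11 SE, adjusted p = 7.20e-10). Tgm2 lost its call in both 27-library fits. The mannose receptor Mrc1 was at 714, 748 and 737 CPM in WT and 742, 747 and 679 CPM in TRAP1 KO (log2 fold change -0.02 ± 0.072 SE, adjusted p = 0.912) and Cd163 at 6.99, 6.51 and 5.47 CPM in WT and 4.63, 3.8 and 5.26 CPM in TRAP1 KO (log2 fold change -0.47 ± 0.23 SE, adjusted p = 0.188). Arg1 stayed under 2 CPM in all 6 libraries (log2 fold change 1.34 ± 0.73 SE, adjusted p = 0.259), though it passed at 1.93 without TRAP1 KO replicate 1, where it had no count. Arg2 did not pass the filter on low counts. The glutamine synthetase gene Glul was slightly higher (log2 fold change 0.24 ± 0.08 SE, adjusted p = 0.0432) and lost this call in DESeq2 (0.22) and in 5 of 6 fits without 1 library (0.18 to 0.26).

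In the mitochondrion itself, the home of TRAP1, few transcripts of chaperones, respiratory complexes and ribosomal proteins passed the test. Of 16 mitochondrial chaperones and proteases 2 were lower, Trap1 and the protease gene Spg7 (log2 fold change -0.47 ± 0.13 SE, adjusted p = 0.0125), and the chaperonin Hspd1 was read at 51.9, 48.3 and 45.3 CPM in WT and 53.1, 44 and 39.2 CPM in TRAP1 KO (log2 fold change -0.09 ± 0.12 SE, adjusted p = 0.692). Of 9 genes of succinate dehydrogenase and itaconate, Acod1 alone passed, and Sdhb, the iron-sulphur subunit, gave 278, 302 and 298 CPM in WT and 276, 296 and 310.2 CPM in TRAP1 KO (log2 fold change 0.01 ± 0.09 SE, adjusted p = 0.973). Higher and lower counts were 2 and 1 of 53 for complex I, 2 and 1 of 14 for complex III, 3 and 0 of 23 for complex IV, and 0 and 0 of 19 for complex V. They were 2 and 3 of 76 for mitochondrial ribosomal proteins. All but complex III lay below the 16.6% of all tested genes. Over the 19 complex V genes the median log2 fold change was -0.04, and of 34 genes of the mitochondrial chromosome 4 were higher and 1 lower (median 0.26). These were tRNA genes, and 0 of the 13 protein-coding genes there passed (median 0.19). In the tricarboxylic acid cycle list 3 of 31 were higher and 5 lower (9.68% and 16.1%), against 8.64% of all tested genes higher and 7.97% lower. The cytosolic isocitrate dehydrogenase Idh1 rose, with 278, 274 and 271 CPM in WT and 399.6, 388 and 414 CPM in TRAP1 KO (log2 fold change 0.55 ± 0.075 SE, adjusted p = 4.92e-06). Its mitochondrial relative Idh2 (log2 fold change -0.37 ± 0.089 SE, adjusted p = 0.00395), Mdh2 (-0.23), Got2 (-0.48) and the malic enzymes Me1 (-1.05) and Me2 (-0.56) fell. Leaving out 1 library removed the call at Spg7 (-0.37 without TRAP1 KO replicate 3, -0.36 without WT replicate 1). Calls were lost in 4 of 6 such fits each at Mdh2 (-0.19 to -0.23) and Me1 (-0.87 to -1).

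Of the genes of glycolysis and the HIF pathway about as many passed as among all tested genes (16.6%). Of 23 glycolysis and glucose transport genes 1 was higher, Slc2a6 (log2 fold change 0.61 ± 0.10 SE, adjusted p = 7.96e-05), and 3 lower, namely Pkm (582, 545 and 560.3 CPM in WT and 410.1, 402 and 421 CPM in TRAP1 KO, log2 fold change -0.45 ± 0.087 SE, adjusted p = 3.69e-04), Slc2a3 (-0.52) and the lactate transporter Slc16a1 (-0.64). Hif1a RNA was read at 47.5, 53.6 and 45.2 CPM in WT and 45.8, 52.7 and 50.9 CPM in TRAP1 KO (log2 fold change 0.03 ± 0.087 SE, adjusted p = 0.884). Of 29 HIF pathway genes 4 were higher, Mmp9, Vegfa, Bnip3l (0.45) and Ndrg1 (0.44), and 1 lower, Ddit4 (-0.67), with a median of 0.08. The call at Ddit4 was lost without TRAP1 KO replicate 1 (-0.51), and that at Slc2a3 in 4 of 6 fits without 1 library (-0.44 to -0.52). The lactate dehydrogenase gene Ldha gave 91.5, 94.9 and 87.9 CPM in WT and 79.5, 91.8 and 74.8 CPM in TRAP1 KO (log2 fold change -0.16 ± 0.10 SE, adjusted p = 0.378), and passed at -0.21 with a replicate block in the 6 libraries alone.

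Stress, protein folding and transcription factor lists held calls in both directions, except that of the endoplasmic reticulum, where 0 were lower. Among all tested genes 8.64% were higher and 7.97% lower, and several of the lists' counts lay near these shares. The cytosolic chaperone Hsp90aa1, a paralog of TRAP1, was lower, with 312, 333 and 334 CPM in WT and 227, 252 and 231 CPM in TRAP1 KO (log2 fold change -0.46 ± 0.081 SE, adjusted p = 1.46e-04), as was its cochaperone Fkbp4 (-0.48), and 1 of 16 members of the cytosolic HSP90 and HSF1 list, Hspa1b, was higher (log2 fold change 0.66 ± 0.21 SE, adjusted p = 0.0304). Of 20 genes of endoplasmic reticulum chaperones and the unfolded protein response 3 were higher, the chaperone Hspa5 (log2 fold change 0.30 ± 0.068 SE, adjusted p = 0.00236), the degradation component Herpud1 (0.70) and the transcription factor Xbp1 (0.47). Of 22 integrated stress response genes 4 were higher, among them Ddit3 (log2 fold change 0.96 ± 0.16 SE, adjusted p = 5.51e-05) and Atf3 (0.65), and 4 lower, among them the serine synthesis genes Psat1 (log2 fold change -1.04 ± 0.13 SE, adjusted p = 1.30e-06) and Phgdh (-1.40). Fits without 1 library lost the calls at Hspa1b in 5 of 6 (0.56 to 0.69) and Xbp1 in 3 (0.38 to 0.46). The calls also went at Fkbp4 without TRAP1 KO replicate 2 (-0.44) or WT replicate 3 (-0.40), and Phgdh without TRAP1 KO replicate 3 (-1.10) or WT replicate 3 (-1.28). Among 45 macrophage transcription factors 8 were higher, including Irf8 (0.72), Irf1 (0.67) and Maf (0.33), and 7 lower, including Id3, Fos (log2 fold change -1.51 ± 0.17 SE, adjusted p = 1.32e-06) and Runx2 (-0.90).

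In Mφ in control medium, genes near Trap1 on its chromosome passed the test about as often as genes elsewhere. By RefSeq positions on GRCm38.p6, 12 of 76 tested genes (15.8%) within 10 Mb of Trap1 passed, 7 higher and 5 lower, against 16.3% on the rest of the same chromosome. In all 4 combinations of polarization and medium, 4 of the 76 passed in 1 direction. That is a larger share, resting on 4 genes, than the 5 of 344 on the rest of the chromosome and the 294 of all 13614 tested genes. The largest of these changes were at Rpl39l (log2 fold change 3.47 ± 0.74 SE, adjusted p = 0.00122) and Rmi2, a partner of the BLM helicase (log2 fold change -2.63 ± 0.46 SE, adjusted p = 1.19e-04), and Rpl39l stayed under 2 CPM in all 6 libraries. Atf7ip2 (-1.48, not called in 5 of 6 fits without 1 library, -1.02 to -1.71), Shisa9 (1.33), the pyrin gene Mefv (-1.21) and Ciita followed. Litaf, a lysosomal membrane protein, was read at far more counts than these, with 259, 295 and 291 CPM in WT and 518, 552 and 571 CPM in TRAP1 KO (log2 fold change 0.96 ± 0.079 SE, adjusted p = 1.16e-09).

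The same genotype difference was then read in the other 3 conditions of batch 1, which share no library with this comparison. In Mφ in MPNST-CM 38.2% of genes passed (19.1% higher, 19.2% lower), in M2 cells in control medium 16.4% (8.56% and 7.87%), and in M2 cells in MPNST-CM 34% (17.2% and 16.8%). Of the 2261 genes, 1212 (53.6%) passed in the same direction and 330 in the opposite direction in Mφ in MPNST-CM. The numbers were 736 (32.6%) and 106 in M2 cells in control medium, and 1147 (50.7%) and 312 in M2 cells in MPNST-CM. The shared genes were 23.3%, 32.9% and 24.8% of those called in the respective conditions. In all 4 conditions 294 genes passed in 1 direction, 154 higher and 140 lower, and 303 of the 2261 passed in no other condition.

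How the genotype difference depends on medium and polarization was tested with interaction terms. The interaction with MPNST-CM passed at 2683 genes (19.7%), 1112 (8.17%) with a more positive and 1571 (11.5%) with a more negative difference in MPNST-CM than in control medium. The interaction with IL-4 in control medium passed at 964 genes (7.08%), 526 (3.86%) more positive and 438 (3.22%) more negative in M2 cells. With all 27 libraries these counts were 653 and 777 for MPNST-CM and 170 and 122 for IL-4, without and with a batch term, and the list counts that follow were taken from the 24 libraries of batch 1.

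Most replication genes passed in both interactions. Their summed level over the 71 tested genes was 6973 ± 515 CPM (SD, n = 3) in WT and 3476 ± 225 CPM in TRAP1 KO Mφ in control medium, and 8196 ± 675 and 1714 ± 161 CPM in MPNST-CM. In M2 cells it was 3011 ± 65.8 and 3235 ± 40.7 CPM in control medium, and 4902 ± 600 and 1837 ± 22.1 CPM in MPNST-CM. The sum in WT cells was lower in M2 cells than in Mφ in control medium, while that in TRAP1 KO cells was close in both. In M2 cells in control medium 6 of 71 were higher and 3 lower (median 0.09), and the interaction with IL-4 passed at 56 of 71, all more positive, with a median of 1.22. With MPNST-CM the gap widened, with 68 of 71 lower (median -3.20) and the interaction past the threshold at 65, more negative at each of these, and at 1 more positive.

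The interferon list behaved differently. It stood at 9526 ± 122 CPM in WT and 14155 ± 120 CPM in TRAP1 KO Mφ in control medium. The sums were 2624 ± 27 and 4213 ± 93.3 CPM in M2 cells in control medium, where 27 of 65 were higher and 4 lower (median 0.45). In M2 cells in MPNST-CM it was 5311 ± 141 CPM in WT and 12682 ± 252 CPM in TRAP1 KO, with 57 higher and 1 lower (median 1.73), and in Mφ in MPNST-CM 23 were higher and 10 lower (median 0.13). The interaction with IL-4 passed at 16 of 65, 5 more positive and 11 more negative, and that with MPNST-CM at 30, 8 and 22.

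**Figure D4:**
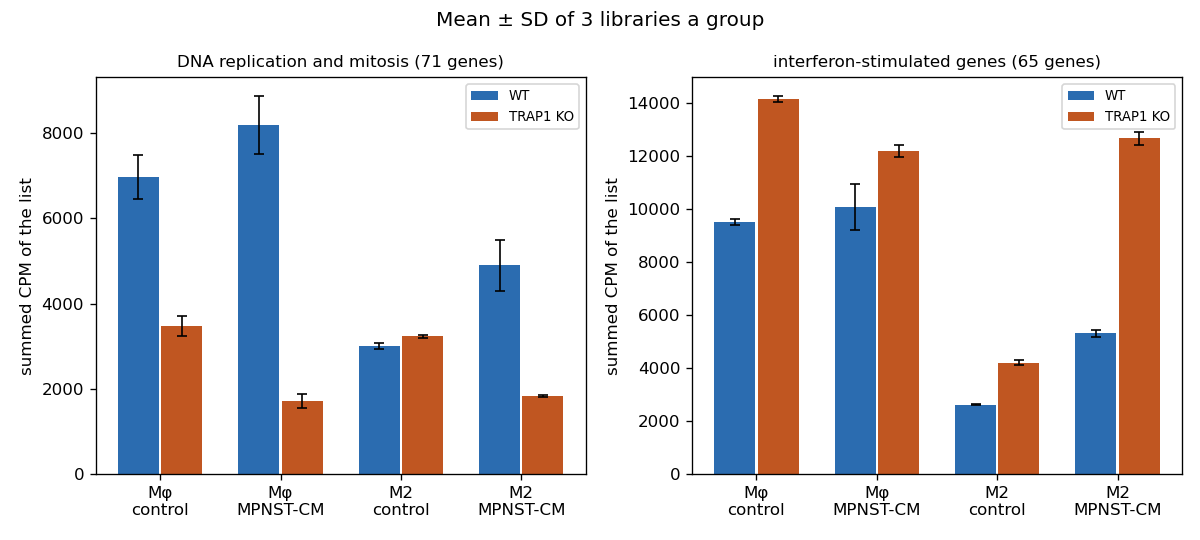
Summed CPM of the replication list (71 genes) and the interferon list (65 genes) in 4 conditions, WT in blue and TRAP1 KO in orange, as mean ± SD of 3 libraries. The replication sum is lower in TRAP1 KO than in WT in every condition but M2 cells in control medium (3011 and 3235 CPM), and the interferon sum is higher in TRAP1 KO in all 4.

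**Figure D5:**
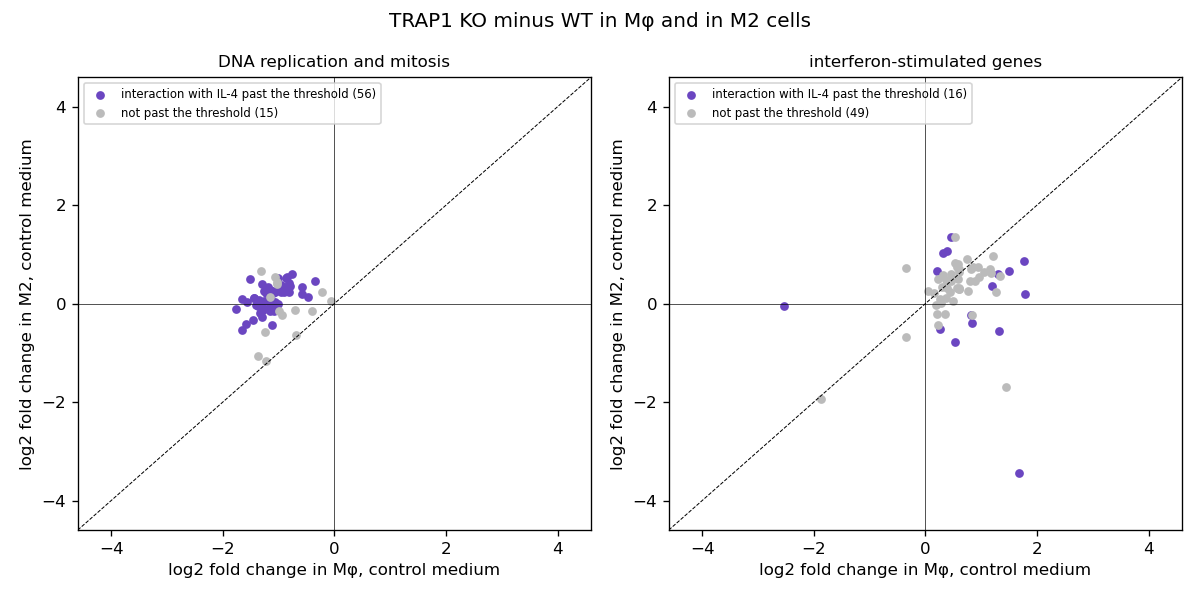
Log2 fold change (TRAP1 KO minus WT) of each list member in Mφ against that in M2 cells, both in control medium, with the diagonal dashed and purple points past the threshold in the interaction with IL-4. Replication genes lie left of 0 in Mφ and around 0 in M2 cells, with 56 of 71 in purple, against 16 of 65 interferon genes.

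Other lists differed between conditions in the same tests. Lysosomal genes, 27 of 48 higher here, were higher at 9 in M2 cells in control medium and at 15, with 7 lower, in Mφ in MPNST-CM, and the interaction with MPNST-CM was more negative at 18. Angiogenic growth factors, 15 of 30 higher here, were lower at 13 and higher at 4 in Mφ in MPNST-CM, with 14 more negative interactions and 2 more positive. The HIF list went the other way, with 19 of 29 higher in Mφ in MPNST-CM and the interaction more positive at 15 and more negative at 1. Alternative activation markers were lower at 19 of 25 in M2 cells in control medium, and the interaction with IL-4 was more negative at 13 and more positive at 2. Complex I genes, at 2 higher and 1 lower of 53 here, were lower at 24 in M2 cells in control medium, with 6 more negative interactions.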

How the data were processed

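RNA from bone marrow-derived macrophages was sequenced with QuantSeq 3′ FWD libraries as single 75 base reads. The authors trimmed reads with Trimmomatic (window of 4 bases, quality above 20), aligned them with HISAT2, removed alignments of mapping quality under 20 with SAMtools, and deposited featureCounts counts per gene. The build is mm39 in the labels and mm10 in the study's methods, and the annotation and strand setting are not given in the sources used here, so overlapping and antisense genes cannot be told apart. Tags lie near poly(A) sites, so a gene is read at 1 place and multi-copy families may share reads.

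Counts of the 24 batch 1 libraries in 8 groups were filtered with filterByExpr, scaled by TMM and fitted with edgeR 4.0.16 (quasi-likelihood, robust) in R 4.3.3, with limma 3.58.1. The contrast was TRAP1 KO minus WT in Mφ in control medium, the interactions were with MPNST-CM and with IL-4, and p-values were adjusted by Benjamini-Hochberg over 13614 genes. CPM are TMM-scaled, and the SE is the log2 fold change over the root of F. The 3 replicates a group limit the precision, and the floor of 3 counts covers counting error only. A further 5 columns of the table matched no sample and were not used.

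Same-numbered WT and TRAP1 KO libraries correlated in their deviations from the group means (r = 0.466, 0.160 and 0.197 across genes for replicates 1, 2 and 3), so numbers were taken as pairs in an alternative fit with a replicate block. Crossed pairs of replicates 2 and 3 gave 0.164 and 0.144, so these values separate replicate 1 from 2 and 3 but not 2 from 3. Other alternatives were DESeq2 1.42.0, RLE factors, no filter, the compared groups alone, all 27 libraries, autosomal genes and fits without 1 library. Leaving out replicate 1 of each group that held one was chosen after seeing the data.

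Genes were named by size of change: the 15 largest rises and falls with at least 10 CPM and no overlap, up to 5 members of each list, the markers the study follows by RT-qPCR, the 6 largest changes within 10 Mb of Trap1, and the 6 largest interactions. A further 48 list members or neighbours were examined after their values were seen, among them Top2a, Mki67, Rsad2, Gbp2, Ctsb, Ccr2 and Litaf. The comparison, its lists and tests were chosen with earlier results of these data known. Some genes are not reported here. Scripts were tested on simulated counts.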

Additional observations from a re-analysis of the deposited data

Results flagged for a closer look

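The genotype difference of Mφ in control medium was not the same in MPNST-CM at 2683 genes and not the same in M2 cells at 964 genes, by edgeR's interaction test. Values below are mean CPM of 3 libraries, WT then TRAP1 KO, and each interaction is on the log2 scale.

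With MPNST-CM, the water and glycerol channel gene Aqp9 was at 1.73 and 0.523 CPM in control medium and at 5.78 and 80.5 CPM in MPNST-CM (interaction 5.49). Cox6a2, a muscle-type subunit of complex IV, went from 0.921 and 1.59 to 0.496 and 31.1 CPM (5.18). The platelet chemokine Ppbp stood at 6.30 and 1.70 CPM in control medium and at 78.3 and 633 CPM in MPNST-CM (4.92). In the other direction, Dnmt3aos, an antisense RNA, was at 6.99 and 20.4 CPM and then 5.12 and 0.542 CPM (-4.75). Cxcl10, higher in TRAP1 KO Mφ in control medium (96.3 and 221 CPM), was lower in MPNST-CM (54.8 and 4.95 CPM, -4.67). The carbonic anhydrase gene Car2 was at 0.551 and 1.33 CPM and then 0.904 and 0.083 CPM (-4.43), under 2 CPM in all 4 groups.

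With IL-4, Arg1, the arginase of M2 cells, was at 0.359 and 0.961 CPM in Mφ and at 92.0 and 4.89 CPM in M2 cells (-5.57). The lectin gene Mgl2 moved from 0.519 and 3.00 to 342 and 69.7 CPM (-4.76). The cytokine signalling inhibitor Socs1 went from 3.93 and 6.68 to 27.4 and 1.83 CPM (-4.66), and the endothelin gene Edn1 from 0.573 and 1.34 to 48.3 and 5.89 CPM (-4.24). Rnase2a was at 0.079 and 0.391 CPM in Mφ and 577 and 226 CPM in M2 cells (-3.40), an interaction that was not called without TRAP1 KO replicate 2 of Mφ in control medium (-2.84). Ccl5 stood at 12.8 and 76.8 CPM in Mφ and at 18.3 and 10.3 CPM in M2 cells (-3.40). The interactions of Aqp9, Cox6a2, Ppbp, Dnmt3aos, Car2 and Rnase2a were not called in a fit of all 27 libraries.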

How the results depend on the processing

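Counts of called genes in Mφ in control medium (2261) and for the interactions with MPNST-CM (2683) and IL-4 (964) stayed within 1.5 times under DESeq2, RLE factors, no filter, the compared groups alone and autosomal genes. They moved further with all 27 libraries, to 854, 653 and 170 without and 843, 777 and 122 with a batch term, where 35.1% and 38.1% of the Mφ calls were higher in TRAP1 KO against 52% above (44.4% with the compared groups alone). A least absolute log2 fold change of 1 left 595. Without 1 library the counts ran from 1753 to 2117, from 2357 to 2590 and from 743 to 914, and without replicate 1 of each group that held one the IL-4 count was 640. WT M2 cells in control medium had no library numbered 1, so that fit kept all of their libraries. Their library numbered 4 shared its number with no other in the replicate block over batch 1. A replicate block gave 2639, 3084 and 998 over the 24 libraries, and 4065 for Mφ with the 6 libraries alone. Among 229 genes examined it changed the calls of Mki67 and Ldha. Hif1a turned to -0.016 with the compared groups alone, -0.097 with 27 libraries without a batch term and -0.0148 with the block in 6 libraries, and ran from -0.0207 to 0.102 without 1 library. Mrc1 turned to 0.0054 with 27 libraries without a batch term and ran from -0.0456 to 0.0215 without 1 library. Il1b turned to 0.14 with 27 libraries and a batch term, and Hspd1 ran from -0.223 to 0.00066 without 1 library. Sdhb turned to -0.0125 under DESeq2 and under RLE factors, -0.039 with the compared groups alone and -0.0391 with the block there, and ran from -0.0326 to 0.0503 without 1 library. None of these values was called. Of the 229 genes, 116 and 119 lost their call with 27 libraries and 16 to 28 without 1 library. Members called higher in the 27-library fits, without and with a batch term, fell to 5 and 4 for interferon, 4 and 7 for lysosome, 4 and 4 for MHC class I, 0 and 0 for class II, 4 and 4 for iron, 5 and 7 for lipid, 2 and 3 for angiogenic, 3 and 4 for classical activation and 3 and 4 for CC chemokine genes, and members called lower to 4 and 4 for antioxidant, 4 and 5 for integrin, 3 and 3 for monocyte and 1 and 1 for neutrophil genes. Scavenger and Fc receptors called higher fell to 3 and 3. The cause of these falls was not tested. Genes near the floor of 3 counts have the least certain folds.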

Other observations

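Further regulators were looked up after the values were seen. Around Id1 and Id3, targets of bone morphogenetic proteins, the ligand gene Bmp2 had 3, 1 and 2 counts in the WT and 34, 30 and 25 in the TRAP1 KO libraries (log2 fold change 3.89), the inhibitory SMAD gene Smad6 was lower (log2 fold change -2.86 ± 0.68 SE, adjusted p = 0.0035), and Id2 was read at 284, 263 and 257 CPM in WT and 245, 258 and 256 CPM in TRAP1 KO (log2 fold change -0.08 ± 0.077 SE, adjusted p = 0.559). Tgfb1 was higher (0.54) and the matrix gene Tgfbi lower, with 344, 400.4 and 399 CPM in WT and 138, 186 and 154 CPM in TRAP1 KO (log2 fold change -1.26 ± 0.11 SE, adjusted p = 2.82e-09). Among regulators of the cell cycle, the transcription factor genes Foxm1 (log2 fold change -1.05 ± 0.16 SE, adjusted p = 2.08e-05), Mybl2 (-1.54) and E2f1 (-0.40) were lower, the inhibitor Cdkn2a was higher (log2 fold change 1.36 ± 0.30 SE, adjusted p = 0.00159), Cdkn2c was lower (-0.73), and Cdkn1a did not pass (log2 fold change -0.41 ± 0.24 SE, adjusted p = 0.299). Among sources and sensors of interferon, Ifnb1 had 0, 2 and 1 counts in WT and 4, 4 and 2 in TRAP1 KO libraries and was under the filter, Ifng had 0 counts, and neither receptor chain passed (Ifnar1 log2 fold change -0.09 ± 0.10 SE, adjusted p = 0.661, and Ifnar2 with adjusted p = 0.994). The RNA sensor gene Tlr7 was higher (log2 fold change 0.64 ± 0.087 SE, adjusted p = 5.08e-06) and the DNA sensor gene Cgas lower (log2 fold change -0.55 ± 0.15 SE, adjusted p = 0.00783).

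The labels place 1 more WT library of Mφ in control medium in batch 2, with no TRAP1 KO library beside it. On CPM of its own total, the replication list summed to 8327 in it, against 7241 to 8312 in the 3 WT and 3376 to 3828 in the 3 TRAP1 KO libraries of batch 1. The interferon list summed to 7338, below the 10296 to 10619 of the WT and 14301 to 14478 of the TRAP1 KO libraries, and the lysosome list to 44777, between 39656 to 42943 and 49215 to 53700. Batch and library cannot be told apart in this value.

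The ferritin light chain pseudogene Ftl1-ps1 passed the test although its groups overlap, with 423, 9.12 and 128 CPM in WT and 5.5, 9.29 and 8.15 CPM in TRAP1 KO (log2 fold change -4.61 ± 0.82 SE, adjusted p = 6.04e-04), and its reads may be shared with Ftl1.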
